A study of Saccharomyces cerevisiae with 8 samples.

Results

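The proteasome is the protease that degrades proteins tagged with ubiquitin, and 33 genes of budding yeast that build it or switch it on were followed here across 2 strains. They comprise the 14 subunits of its 20S core, 18 subunits of the 19S regulatory particle that caps the core, and RPN4, the transcription factor that activates the subunit genes. Members were chosen by gene symbol, a rule that uses no signal, though earlier results of these data were known when they were chosen. Each had 1 probe set, so that 33 of the 5392 genes tested on the arrays were members. All of them exceeded the array background on all 8 arrays, with signals between 2040 and 7898.

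The arrays compared the CDC34tm strain (RRC85, MATα, with the CDC34tm allele marked by a nourseothricin resistance gene, NatR) with an isogenic wild type (WT; DBY2059, MATα, leu2-3, 112). Cdc34 is the ubiquitin-conjugating enzyme of the SCF ligases and so acts upstream of the proteasome. The labels do not explain the letters tm. The labels further name, for all samples, disruption of part of the PST1 3' region and the leu2-3, 112 allele as variables. They do not say which strain carries the PST1 disruption, and the strain description gives leu2-3, 112 for WT. Every culture of a group came from the same strain, so the CDC34tm allele, its marker and any other difference between the strains cannot be told apart. Cultures of both strains grew at 30 °C in a synthetic medium that held 2% dextrose, 0.25% glutamine and 25.2 mg/L leucine. RNA of 4 separate cultures per strain was hybridised to Affymetrix Yeast 2.0 arrays, 1 culture per array.

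As background, the 20S core is a barrel of stacked rings. Its outer alpha rings gate the entrance and its inner beta rings hold the proteolytic sites. The 19S base contains 6 ATPases that unfold substrates and thread them into the core, while the lid removes the ubiquitin chain. Rpn4 binds a short promoter element shared by proteasome genes and is itself degraded by the proteasome, so that Rpn4 protein accumulates when proteasome capacity is short, in a negative feedback loop. RPN4 transcription is also raised by heat shock and drug response factors.

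CDC34 mRNA differed by a log2 fold change of 0.01 between the strains, which does not test the allele. PST1, named in the labels, read 672 to 870 in CDC34tm, against 1536 to 1991 in WT. LEU2 read 1358 to 1611 in CDC34tm, against 2719 to 3711 in WT. Of the mating-type markers, the alpha-specific genes were bright, with SAG1 between 8119 and 8872 on the CDC34tm arrays and between 7679 and 10327 on the WT arrays. None of the 6 a-specific genes exceeded 302 on any array. The 3'/5' signal ratio of the ACT1 control probe sets, a sign of RNA integrity, was 1.262 to 1.318 on the CDC34tm arrays and 1.246 to 1.383 on the WT arrays, with WT replicates 1 and 4 at 1.324 and 1.246. WT replicates 1 and 4 stood apart from WT replicates 2 and 3 in heat shock genes and in the proteasome genes themselves. Values without each of these pairs are given below.

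Some of the proteasome genes were lower in CDC34tm and none were higher, with RPN4 and 6 of the 10 genes of the 19S base among those that fell. By limma on log2(signal + 16), with p-values adjusted over the 5437 probe sets tested and calls made at 0.05, 14 of the 33 members fell and 0 rose. Over all tested probe sets, 19.7% were called lower and 18.9% higher. Another 19 members did not pass the test. The median log2 fold change was -0.19 over the 32 subunits and 0.00 over all tested probe sets, and 29 of the 32 subunits had a value below 0. For 10 members all CDC34tm signals lay below all WT signals, and for 0 they all lay above, against 20.5% and 19.1% of the tested probe sets. When each array was instead centred on its median signal, the split over all probe sets became 898 lower and 1298 higher, in place of 1072 lower and 1028 higher, and 9 members fell (16.5% of all probe sets were lower), without PRE2, RPN1, RPN12, RPN8 and SCL1. The count of 14 also depended on single cultures: 7 members fell without CDC34tm replicate 2, 8 without CDC34tm replicate 4, 8 without WT replicate 1 and 6 without WT replicate 4. In those fits 16.1%, 15.3%, 17.7% and 17.9% of all tested probe sets were called lower. Since each array measured a whole culture, a lower level in every cell and fewer cells with a high level cannot be told apart.

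**Figure D1:**
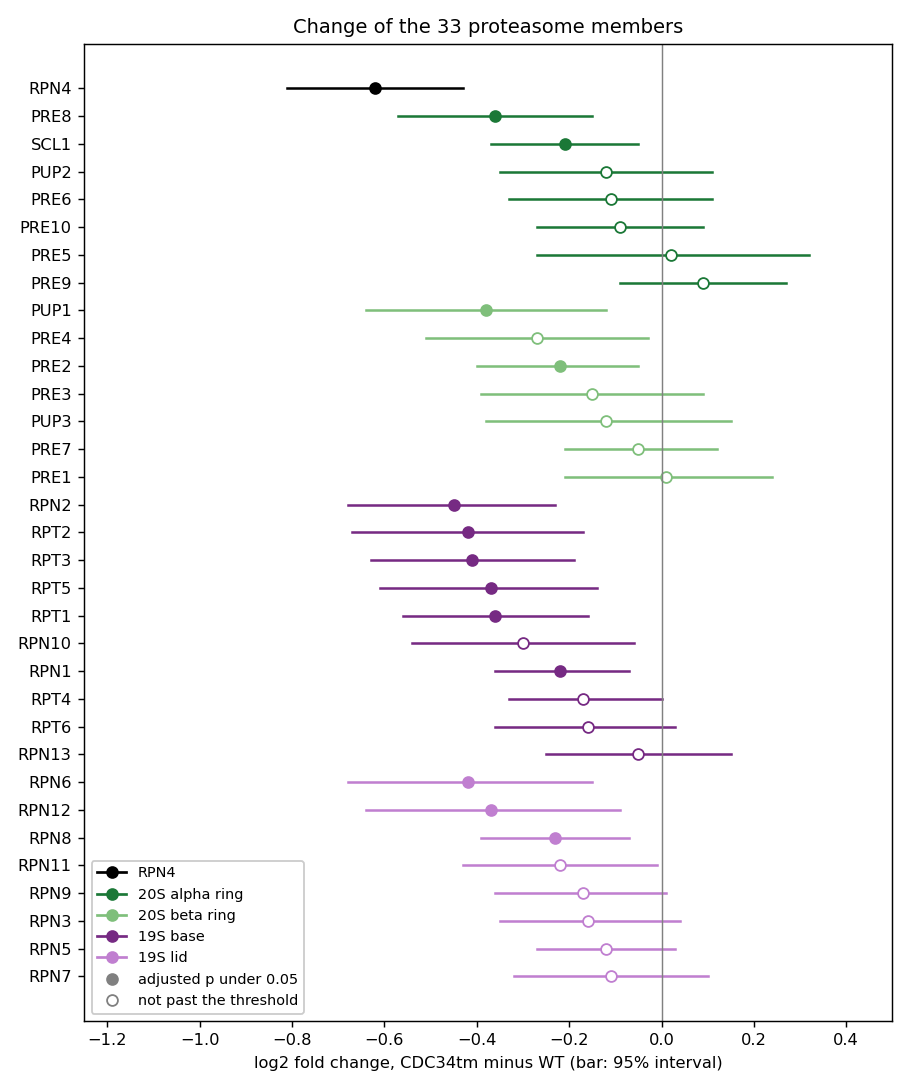
Log2 fold change of each of the 33 members, CDC34tm minus WT (points; bars are 95% intervals; filled points passed an adjusted p of 0.05), grouped by subcomplex. RPN4 at -0.62 lies lowest, the 19S base members spread from -0.45 to -0.05, and the 20S members from -0.38 to 0.09.

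RPN4, the activator, had the largest log2 fold change of the 33 members with all 8 arrays in the fit. Its signals were 2077, 2237, 2108 and 2085 on CDC34tm replicates 1 to 4, against 3557, 3082, 2851 and 3695 on WT replicates 1 to 4. The strains did not overlap, and even the lowest WT array exceeded the highest CDC34tm array. RPN4 mRNA in CDC34tm was 65.0% of the WT level, a log2 fold change of -0.62 ± 0.08 (SE; 95% interval -0.81 to -0.43; limma adjusted p = 5.18e-04). The call held whichever single array was left out, with log2 fold changes from -0.69 to -0.56. PRE8, RPT1, RPT2, RPT3 and RPN2 were the other members called in all 8 of those fits.

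RPN4 was also lower when measured against the subunit genes. With each array centred on the median of the 32 subunits, a scaling chosen after the data were seen that moves the median of all genes to 0.21, RPN4 had a log2 fold change of -0.41 (limma adjusted p = 0.0127). It was the only one of the 33 members called lower on that scale, against 5.85% of the probe sets. That count does not set RPN4 apart, because the centring holds the 32 subunits, but not RPN4, around 0 by construction. In all, 17 members had values below 0, and RPN2 stood at -0.25. PRE9 was the only member called higher on it (0.30, limma adjusted p = 0.0496), against 23.5% of the probe sets, with 16 members above 0.

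In the 20S alpha ring, whose subunits form the gate of the core, 2 of 7 genes fell, against 19.7% of all tested probe sets. The median log2 fold change of the ring was -0.11. PRE8 read 3831, 3484, 3902 and 3727 on the CDC34tm arrays, against 5575, 4258, 4211 and 5235 on the WT arrays. Its strains did not overlap, and its log2 fold change was -0.36 ± 0.09 (SE, limma adjusted p = 0.0146). SCL1 read 4563, 4719, 5160 and 5120 in CDC34tm, against 5839, 5240, 5306 and 6353 in WT. The ranges of SCL1 were separate but close, at -0.21 ± 0.07 (SE, limma adjusted p = 0.0394). SCL1 was called in 3 of the 8 fits that left out 1 array, and PRE8 in 8 of 8. The median of the ring was -0.06 without WT replicate 1, -0.19 without WT replicate 2, -0.17 without WT replicate 3 and -0.05 without WT replicate 4.

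PRE5, the alpha subunit gene nearest to no change, had signals of 3421, 3241, 3863 and 3531 in CDC34tm and of 4138, 2674, 3156 and 4064 in WT. The CDC34tm values lay inside the WT range, and the log2 fold change was 0.02 (95% interval -0.27 to 0.32). PRE6 (-0.11), PUP2 (-0.12), PRE10 (-0.09) and PRE9 (0.09), which encode the other alpha subunits, did not pass the test either. PRE9, the gene of the only 20S subunit that yeast can live without, read 5645, 6653, 5703 and 5775 in CDC34tm and 6027, 5125, 5089 and 6100 in WT, with overlap.

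In the 20S beta ring 2 of 7 genes fell, against 19.7% of all tested probe sets, and the median was -0.15. Both genes that fell encode subunits with a proteolytic site, but the calls did not follow such sites throughout. PRE3, which also has a site, was not called (-0.15). PRE4, which has none, had a larger log2 fold change (-0.27) than PRE2 (-0.22). PUP1, the subunit with trypsin-like activity, read 3711, 2877, 3896 and 3512 in CDC34tm, against 4967, 3836, 4277 and 5194 in WT. PRE2, the subunit with chymotrypsin-like activity, read 5260, 4445, 5449 and 5205 in CDC34tm, against 6111, 5358, 5770 and 6559 in WT. Each overlapped between the strains by a single WT array, replicate 2, and their log2 fold changes were -0.38 ± 0.12 and -0.22 ± 0.08 (SE, limma adjusted p = 0.0260 and 0.0473). The count in this ring was 0 when CDC34tm replicate 2, CDC34tm replicate 4, WT replicate 1 or WT replicate 4 was left out, and 4 without WT replicate 2. In these fits, in that order, 877, 833, 964, 971 and 1064 of the 5437 tested probe sets were called lower. The median was -0.08 without WT replicate 1 and also without WT replicate 4, and -0.25 without WT replicate 2.

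PRE3, which carries the caspase-like site, stood at -0.15 without passing the test. Among the beta subunits without a proteolytic site, PRE4 had the largest value (-0.27, 95% interval -0.51 to -0.03, limma adjusted p = 0.0691), followed by PUP3 (-0.12) and PRE7 (-0.05). PRE1 lay nearest to 0, at 0.01 (95% interval -0.21 to 0.24). Its signals of 5384, 5883, 5423 and 5608 in CDC34tm lay between the WT pairs of 4636 and 4967 on replicates 2 and 3 and 6350 and 6338 on replicates 1 and 4.

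In the 19S base 6 of 10 genes fell, against 19.7% of all tested probe sets, with a median of -0.33. The count was 4 without CDC34tm replicate 1 and also without WT replicate 4, and 9 without WT replicate 2. It was 3 without WT replicates 1 and 4. In these fits, in the order given, 879, 971, 1064 and 1138 of the 5437 tested probe sets were called lower. Of the 8 fits that left out 1 array, RPN1 was called in 3 and RPT5 in 5. The difference between subcomplexes was not tested. Among the ATPase genes, which form the motor ring, 4 of 6 fell. RPT3 read 3282, 3308, 3279 and 3199 in CDC34tm, against 5096, 3745, 3823 and 4888 in WT. RPT2 read 3074, 2818, 2979 and 2936 in CDC34tm, against 4600, 3246, 3533 and 4631 in WT. Neither gene overlapped between the strains, and their log2 fold changes were -0.41 ± 0.10 and -0.42 ± 0.11 (SE, limma adjusted p = 0.00999 and 0.0156).

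RPT1 read 4300, 3844, 4405 and 3792 in CDC34tm and 5836, 4509, 4949 and 5742 in WT. RPT5 read 3186, 3080, 3358 and 3350 in CDC34tm and 4909, 3423, 3935 and 4740 in WT. Both were separate between the strains, with log2 fold changes of -0.36 ± 0.09 and -0.37 ± 0.11 (SE, limma adjusted p = 0.0119 and 0.0195). The remaining ATPase genes RPT4 (-0.17) and RPT6 (-0.16) were not called, and for each of them 3 of 4 WT arrays exceeded every CDC34tm array.

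Of the non-ATPase genes of the base, the scaffold gene RPN2 changed most. It read 2802, 3018, 2629 and 2732 in CDC34tm and 4368, 3471, 3249 and 4371 in WT, without overlap, which left it at 73.0% of the WT level (log2 fold change -0.45 ± 0.10, SE, limma adjusted p = 0.00694). RPN1, the other large scaffold, read 6243, 6374, 6169 and 6192 in CDC34tm, against 7896, 6598, 6740 and 7898 in WT, without overlap (-0.22, limma adjusted p = 0.0263). The ubiquitin receptor gene RPN10 had a log2 fold change of -0.30 that missed the threshold (limma adjusted p = 0.0529). RPN13, the other receptor, lay nearest to 0. Its signals were 4109, 4221, 4313 and 4189 in CDC34tm, within the WT values of 4504, 3836, 3957 and 5223 (log2 fold change -0.05, 95% interval -0.25 to 0.15).

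In the 19S lid 3 of 8 genes fell, against 19.7% of all tested probe sets, and the median was -0.20. RPN6, a scaffold subunit that clamps the lid to the core, read 4391, 4128, 4035 and 4449 in CDC34tm, against 6935, 4899, 4719 and 6503 in WT. Its strains did not overlap (log2 fold change -0.42 ± 0.12, SE, limma adjusted p = 0.0201). RPN12 read 2573, 2350, 2040 and 2207 in CDC34tm, against 3454, 2799, 2350 and 3348 in WT. RPN8, partner of the deubiquitinase Rpn11, read 3865, 3679, 3723 and 3481 in CDC34tm, against 4761, 3855, 4161 and 4596 in WT. Both RPN12 and RPN8 overlapped by 1 WT array, with log2 fold changes of -0.37 ± 0.12 and -0.23 ± 0.07 (SE, limma adjusted p = 0.0387 and 0.0289). The count in the lid was 0 when CDC34tm replicate 2, CDC34tm replicate 3 or WT replicate 4 was left out. It was 1 when CDC34tm replicate 4 or WT replicate 1 was. In these fits, in the order given, 877, 935, 971, 833 and 964 of the 5437 tested probe sets were called lower.

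RPN11 itself, the enzyme that cuts off the ubiquitin chain, stood at -0.22 without passing the test (limma adjusted p = 0.0870). The other scaffold subunits of the lid, RPN3 (-0.16), RPN5 (-0.12) and RPN9 (-0.17), were not called. RPN7 was nearest to 0, at -0.11 (95% interval -0.32 to 0.10). It read 4644, 4790, 4646 and 4712 in CDC34tm, inside the WT values of 5495, 4291, 4705 and 5989.

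**Figure D2:**
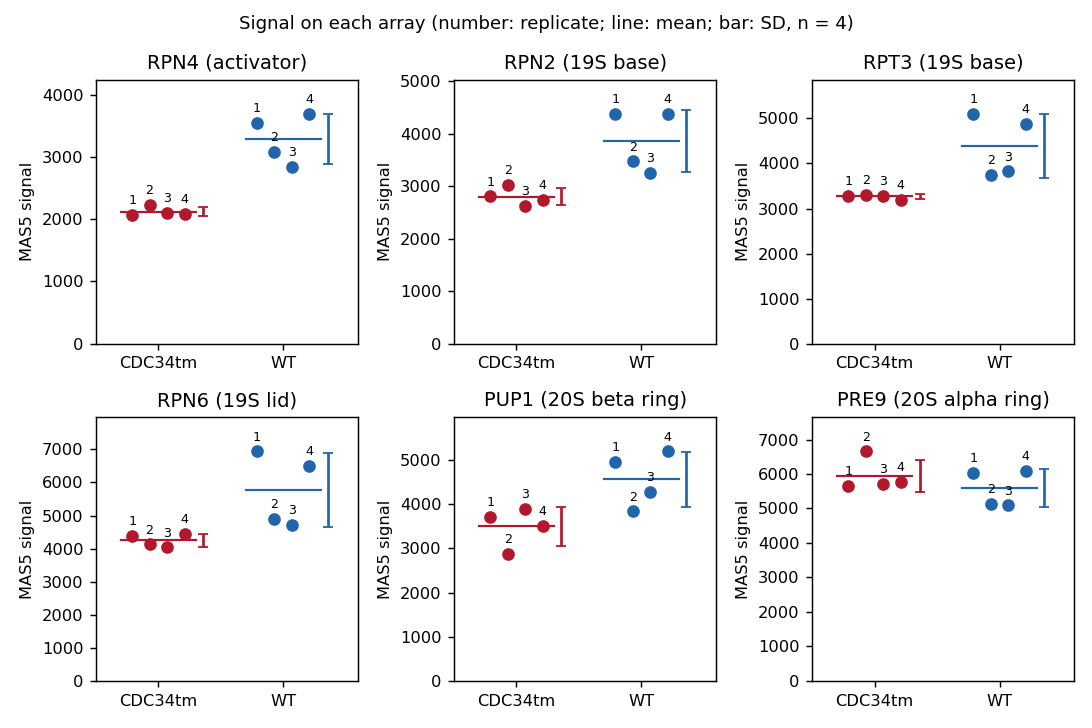
MAS5 signal of RPN4, RPN2, RPT3, RPN6, PUP1 and PRE9 on each array, CDC34tm left and WT right, numbered by replicate (line, mean; bar, SD, n = 4 each). In RPN4, RPN2, RPT3 and RPN6 all CDC34tm arrays lie below all WT arrays, and in all 6 genes WT replicates 1 and 4 are the 2 highest WT arrays.

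The WT cultures differed among themselves in proteasome genes more than the CDC34tm cultures did. The median SD of the log2 signal over the 32 subunits was 0.0610 in CDC34tm and 0.207 in WT, against 0.0885 in CDC34tm and 0.131 in WT over all tested probe sets. In 31 of the 32 subunits the SD was larger in WT, as it was for 68.8% of all tested probe sets. Replicates 1 and 4 were the 2 highest WT arrays in 32 of 32 subunits, an order found in 25.4% of the tested probe sets. RPN4 showed the same order.

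Each WT array was therefore set singly against the CDC34tm arrays. On WT replicates 1 and 4, 31 of the 32 subunits exceeded every CDC34tm array, against 36.8% and 35.6% of all tested probe sets. On both arrays 0 subunits lay below every CDC34tm array, against 38.9% of the tested probe sets on replicate 1 and 40.8% on replicate 4. For WT replicate 2, 10 subunits lay above every CDC34tm array and 11 below every one, against 38.9% and 33% of the tested probe sets. For WT replicate 3 the numbers were 17 above and 6 below, against 39.7% and 33.8%. The median over the 32 subunits, as a log2 difference of the WT array minus the mean of the CDC34tm arrays, was 0.36, 0.01, 0.06 and 0.35 on WT replicates 1 to 4. RPN4 differed in the same direction on all of them, by 0.74, 0.53, 0.42 and 0.79.

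Relative to the CDC34tm arrays, and with no correction for gene length, the base stood higher than the core in each WT culture. As WT array minus the mean of the CDC34tm arrays, the median of the 19S base was 0.51, 0.08, 0.21 and 0.48 on WT replicates 1 to 4. The 20S core had medians of 0.28, -0.10, -0.01 and 0.34 on the same arrays. The difference, base minus core, was 0.00, 0.07, -0.04 and -0.02 on CDC34tm replicates 1 to 4, against 0.23, 0.18, 0.23 and 0.14 on WT replicates 1 to 4. These 8 values did not overlap between the strains, and no test was made of them, because they are a score over chosen genes. The lid, with 0.37, 0.03, 0.03 and 0.33 on the WT arrays, lay below the base on all of them and above the core on 3 of 4.

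Heat shock genes varied over the same WT cultures. The median of 22 heat shock genes, again as WT array minus the mean of the CDC34tm arrays, was 0.90, 0.32, 0.35 and 0.97 on WT replicates 1 to 4. Of the 22, 15 fell in CDC34tm and 1 rose (19.7% and 18.9% of all tested probe sets), while 6 were not called. Their median log2 fold change was -0.52. The gene that rose was HSP26 (0.71, limma adjusted p = 0.0231), and its signals overlapped between the strains. Without WT replicates 1 and 4 the median log2 fold change of the list was -0.36, with 14 lower and 1 higher (20.9% and 17.9% of all). With WT replicates 2 and 3 left out instead, 19 were lower and 0 higher (22.5% and 25.5% of all), around a median of -0.86. The chaperone gene HSP82 read 522, 447, 538 and 488 in CDC34tm and 6920, 815, 943 and 7528 in WT. SIS1, an Hsp40 co-chaperone (-1.29), MDJ1, a mitochondrial Hsp40 (-1.36), SSA1, an Hsp70 (-0.65), and HSP60, the mitochondrial chaperonin (-0.34), also fell, as log2 fold changes. Without WT replicates 1 and 4 these stood at -0.85, -0.83, -0.46 and -0.25. The part of the heat shock genes in the proteasome values was not tested.

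**Figure D3:**
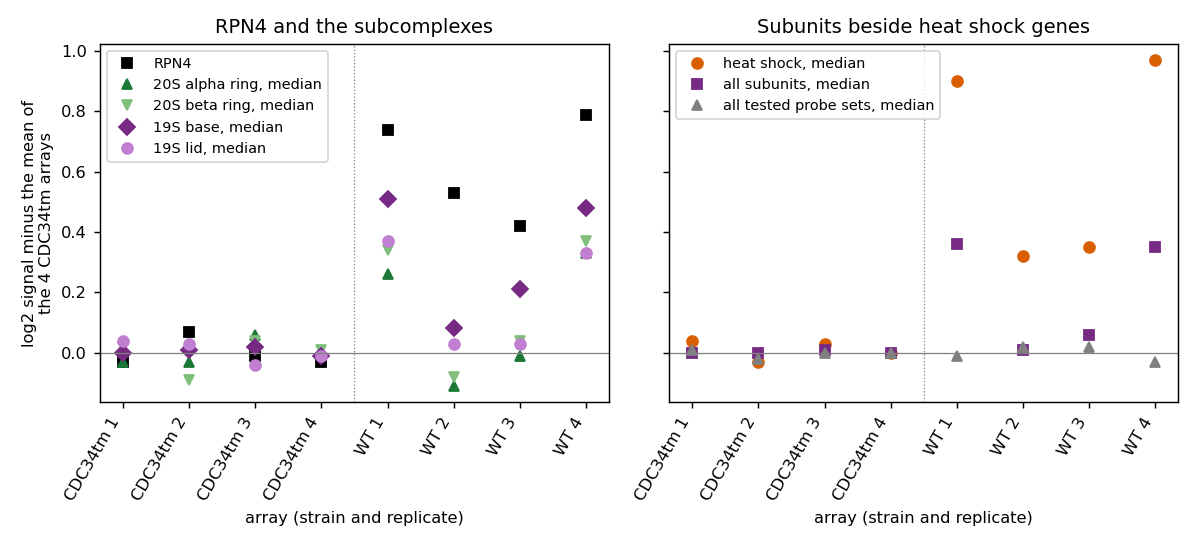
Log2 signal on each array minus the mean of the 4 CDC34tm arrays, CDC34tm replicates left and WT replicates right. The left panel shows RPN4 and the median of each subcomplex, and the right panel the medians of the 32 subunits, of 22 heat shock genes and of all tested probe sets; WT replicates 1 and 4 lie highest for the subunits (0.36 and 0.35) and for the heat shock genes (0.90 and 0.97), while the median of all probe sets stays between -0.03 and 0.02.

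Without WT replicates 1 and 4, a choice that follows the signals themselves and is therefore only descriptive, 6 members fell and 3 rose, against 20.9% of the tested probe sets called lower and 17.9% higher. Those that fell were RPN4 (-0.48), the base genes RPN2 (-0.27), RPT3 (-0.21) and RPT2 (-0.20), the alpha subunit gene PRE8 (-0.18) and the lid gene RPN6 (-0.18). The 3 that rose, PRE5 (0.27), PRE9 (0.21) and PRE1 (0.21), all encode 20S subunits. The median over the 32 subunits was -0.04, with -0.14 for the base, -0.03 for the lid, 0.08 for the alpha ring and 0.06 for the beta ring. Without WT replicates 2 and 3, 31 members fell and 0 rose, against 22.5% and 25.5% of the tested probe sets, with a median of -0.34 over the subunits. Under that choice PRE5 (-0.22) and PRE1 (-0.19) fell, and RPN4 stood at -0.77. The members that did not pass the test were then PRE9 (-0.03) and PRE7 (-0.17).

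**Figure D4:**
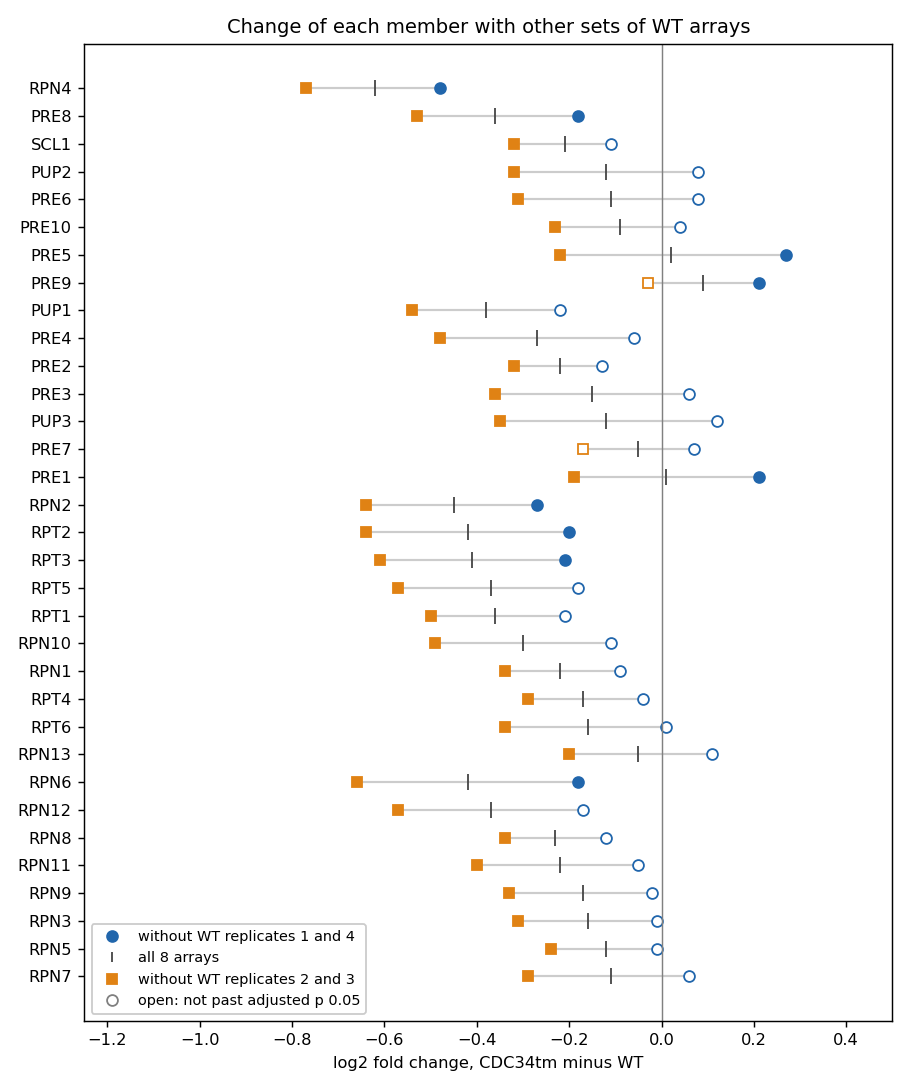
Log2 fold change of each member, CDC34tm minus WT, with all 8 arrays (ticks), without WT replicates 1 and 4 (circles) and without WT replicates 2 and 3 (squares); open symbols did not pass an adjusted p of 0.05. RPN4, RPN2, RPT2, RPT3, RPN6 and PRE8 are filled below 0 under both choices, while PRE5 and PRE1 are filled on opposite sides of 0.

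Gene length moved with the order of the subcomplexes. The 20S genes are short, with a median length of 764 bp (597 to 867 bp) in the RefSeq gene table, and the 19S genes longer, with a median of 1298 bp (471 to 2982 bp). Across the 32 subunits the Spearman correlation of log2 fold change with length was -0.52, and across all tested probe sets it was -0.19, where the points are genes that share the same arrays. With length corrected for, the medians were -0.32 for the base, -0.19 for the lid, -0.16 for the alpha ring and -0.22 for the beta ring, which puts the lid and the beta ring in the opposite order. RPN4 stood at -0.56, and 14 members fell, 13 of them among the 14 called without the correction. In that fit 19.3% of all tested probe sets were called lower. RPN1 (limma adjusted p = 0.120) lost its call and RPN10 (limma adjusted p = 0.0394) gained one.

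Few genes for factors that assemble the proteasome were called. Of 10 such genes, 1 fell and 1 rose, against 19.7% and 18.9% of all tested probe sets. Their median of 0.08 turned to -0.03 with length corrected for and to -0.06 without WT replicates 2 and 3. TMA17, a base assembly chaperone that is induced under stress, read 594, 476, 777 and 594 in CDC34tm, against 1253, 795, 869 and 1210 in WT (log2 fold change -0.74, limma adjusted p = 0.00967, and -0.46 without WT replicates 1 and 4). POC4, a chaperone of alpha ring assembly, was higher without overlap, with 2161, 2185, 2161 and 2235 in CDC34tm against 1666, 1902, 1625 and 1613 in WT (log2 fold change 0.36, limma adjusted p = 0.00257). UMP1, the maturation factor of the core, had a log2 fold change of 0.12 that did not pass the test, and rose (0.35) without WT replicates 1 and 4. In that fit 1 gene of the list fell and 3 rose, against 20.9% and 17.9% of all tested probe sets.

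Among 14 genes for proteasome partners and substrate delivery, 7 fell and 1 rose (19.7% and 18.9% of all tested probe sets), with a median of -0.38. Without WT replicates 1 and 4 the median was -0.12, with 6 lower and 2 higher (20.9% and 17.9% of all). With WT replicates 2 and 3 left out instead, 11 were lower and 1 higher (22.5% and 25.5% of all), around a median of -0.57. DSK2, a shuttle that carries ubiquitylated proteins to the proteasome, changed more than any member of the proteasome: it read 2315, 1763, 2537 and 2332 in CDC34tm, against 5925, 4720, 4975 and 5405 in WT. The strains were far apart, at 42.5% of the WT level in CDC34tm (log2 fold change -1.23 ± 0.11, SE, limma adjusted p = 6.04e-05), and it stood at -1.12 without WT replicates 1 and 4. RAD23, another shuttle (-0.43), HUL5, a ubiquitin ligase bound to the proteasome (-0.64), and UFD1, a cofactor of the segregase Cdc48 (-0.65), also fell, and stood at -0.36, -0.45 and -0.36 without WT replicates 1 and 4. Each of these 4 genes had lower signals on every CDC34tm array than on any WT array. SEM1, a small lid subunit outside the member list, stood at 0.17 without passing the test, and rose (0.33) without WT replicates 1 and 4.

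Genes that act on RPN4 or its promoter fell in part. Of 8 such genes, 4 fell and 0 rose, against 19.7% and 18.9% of all tested probe sets, with a median of -0.25. The median was -0.13 without WT replicates 1 and 4, and 2 of the 8 fell under quantile normalization, without CDC34tm replicate 2 or without CDC34tm replicate 4. The fits with 2 lower called 978, 877 and 833 of the 5437 tested probe sets lower, in that order. HSF1, the heat shock factor, read 623, 528, 661 and 552 in CDC34tm, against 1093, 1011, 888 and 993 in WT (log2 fold change -0.74, limma adjusted p = 3.68e-04). YAP1, the oxidative stress factor, read 1088, 1157, 1200 and 1186 in CDC34tm, against 1683, 1360, 1577 and 1652 in WT (-0.43, limma adjusted p = 0.00267). PDR3, a drug response factor (-0.29), and UBR1, a ubiquitin ligase of the N-degron pathway (-0.27), also fell. Both calls were weak: UBR1 lost it in 10 of 20 alternatives, among them without WT replicates 1 and 4 (limma adjusted p = 0.175), and PDR3 in 7 of 20, among them without WT replicates 2 and 3 (limma adjusted p = 0.108). HSF1 was called in all 20. UBR2, MUB1 and RAD6, whose products ubiquitylate Rpn4, had values of 0.02, -0.23 and -0.04 and were not called. RAD6 was called lower with length corrected for (-0.17, limma adjusted p = 0.0353), and MUB1 without WT replicates 2 and 3 (-0.31, limma adjusted p = 0.0325). PDR1, the other drug response factor of the list, stood at 0.09 and was not called either (limma adjusted p = 0.272).

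Of 6 genes that supply ubiquitin, 1 fell and 0 rose, against 19.7% and 18.9% of all tested probe sets, with a median of -0.01. UBA1, the ubiquitin-activating enzyme, read 3712, 3671, 3580 and 3607 in CDC34tm, against 4396, 4107, 3997 and 4057 in WT, without overlap (-0.18, limma adjusted p = 0.0150), and lost its call with length corrected for (limma adjusted p = 0.0781) and when each array was centred on its median or on the proteasome subunits. The ubiquitin fusion genes RPL40A (0.00), RPL40B (-0.03) and RPS31 (0.02) had values near 0, with 95% intervals within -0.15 and 0.14. RPS31 was called lower with length corrected for (-0.13, limma adjusted p = 0.0428). Near-identical copies such as RPL40A and RPL40B may share probes and are uncertain as single genes. UBI4, the stress-induced polyubiquitin gene, stood at -0.30 without passing the test (limma adjusted p = 0.110).

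**Figure D5:**
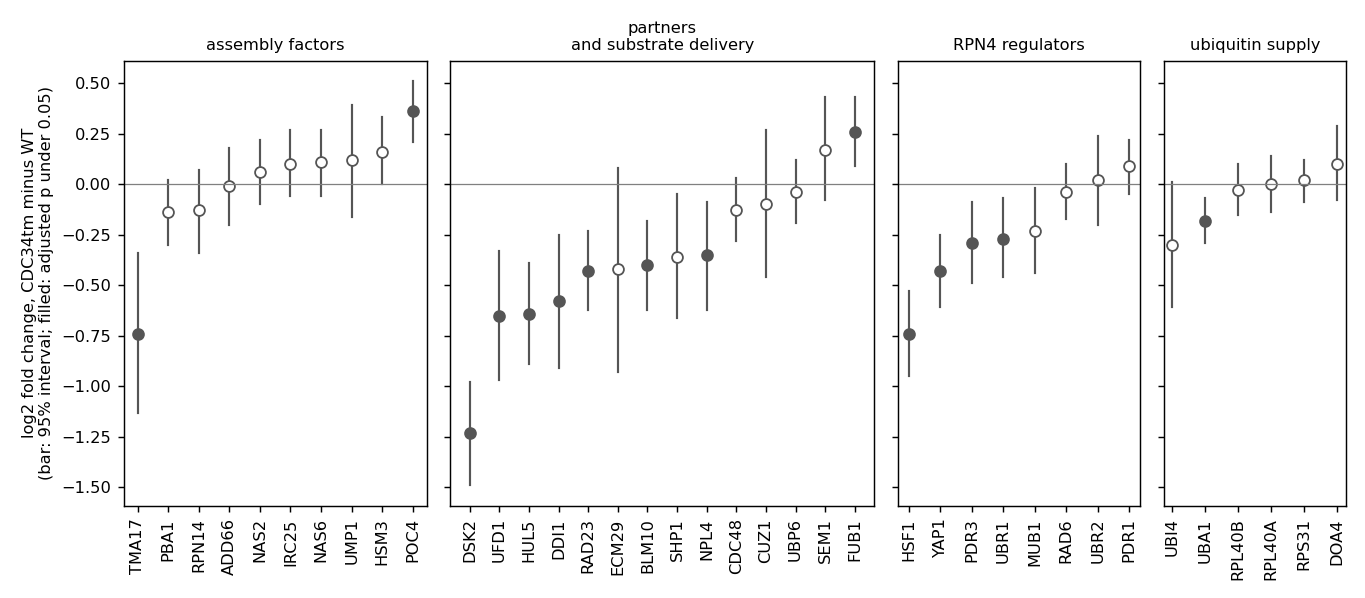
Log2 fold change, CDC34tm minus WT, of the genes in 4 lists around the proteasome (points; bars are 95% intervals; filled points passed an adjusted p of 0.05). DSK2 at -1.23 is the lowest and POC4 at 0.36 the highest.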

How the data were processed

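Signals of 8 Affymetrix Yeast 2.0 arrays were used, 4 per strain, grouped by the sample titles. The authors deposited linear intensity values, which the submitters' processing notes name as MAS5 output. Its version and scaling target are not stated. With 2% of probe sets trimmed at each end, the mean signal was 1000.4 to 1000.5 on each array, so differences are relative to an equal total signal. Cultures were separate, and p-values measure the spread between cultures of 1 strain each.

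Of 10928 probe sets, 5498 were named as 1 S. cerevisiae gene in the platform table (12 symbols updated through RefSeq, R64). The 95th percentile of the 1746 S. pombe probe sets gave each array's background (12.3 to 14.6). Probe sets above it on at least 4 of the 8 arrays were tested (5437, for 5392 genes). Log2(signal + 16) was fitted with limma 3.58.1 in R 4.3.3 (lmFit, eBayes with trend, two-sided, Benjamini-Hochberg over all 5437). The steps were tested on simulated signals with independent noise and the same spread in both strains. That test cannot judge calls where WT arrays vary in pairs, because the simulated arrays did not. A gene was represented by its brightest probe set. Fold changes are on the log2(signal + 16) scale. The number of arrays limits the precision.

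Members and lists were chosen with earlier results of these data known. Genes with values on every array were RPN4, up to 5 called members per subcomplex with the smallest adjusted p and the member nearest 0; of other lists, up to 4 called genes were named. PRE9, RPN1 and further genes given with values, such as HSP82, HSP26, PDR1, SEM1, UMP1 and UBI4, were picked after seeing their values. The alternatives tried were other pseudocounts (1 and 64), normalizations, filters, variance models, a length correction, a replicate block and arrays left out.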

Additional observations from a re-analysis of the deposited data

Results flagged for a closer look

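PRE9, the alpha subunit gene, read 6653 on CDC34tm replicate 2, above the 5645 to 5775 on the other 3 CDC34tm arrays. The gap to the nearest of them was 0.871 of the range of the strain, past Dixon's 95% critical value for 4 samples. It was the only such value among 102 sets of 4 arrays, from 51 genes in both strains. Chance alone gives about 1 in 20.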

How the results depend on the processing

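RPN4 kept its direction and call under all 20 alternatives. The count of 14 members lower in CDC34tm became 9 after centring each array on its median and 6 to 20 with single arrays left out. It was 6 without WT replicates 1 and 4, 31 without WT replicates 2 and 3, and 1 after centring on the proteasome subunits, an alternative added after the data were seen. The count of 0 members higher became 3 without WT replicates 1 and 4 and 1 after centring on the subunits. The subunit median of -0.19 became -0.04 without WT replicates 1 and 4, and -0.34 to -0.04 was its range over both pairs of WT arrays left out. Centring on the subunits sets it to 0.01 by construction. On that scale the medians were 0.09, 0.06 and 0.01 for the alpha ring, beta ring and lid, and -0.12 for the base. Without WT replicates 1 and 4 the ring medians reversed to 0.08 (alpha) and 0.06 (beta), and without WT replicates 2 and 3 PRE5 (-0.22) and PRE1 (-0.19) reversed. UBA1 reversed to 0.02 after centring on the subunits. Apart from the changes that follow from leaving arrays out or from that centring, the cause was not tested. Sign changes of members that were called under neither setting are not counted as reversals. With the replicate number as a block, 16 members were lower (PRE4 and RPN10 were added) and 1018 probe sets were lower and 975 higher in all. Of the CDC34tm arrays, 2 of 4 correlated best with the WT array of their own number. Deviations of same-numbered samples from their strain means correlated by 0.038, 0.227, -0.075 and 0.063 for replicates 1 to 4. The sample titles give only a replicate number. So few values cannot decide whether same-numbered samples were handled together. Pseudocounts of 1 and 64 and both filters left the same 14 members called. The members' signals lay far above the background, so dimness limits none of these calls.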
